A study of Mus musculus with 6 samples.

Results

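Potassium channel genes were taken as every row of the deposited table whose symbol starts with Kcn. There were 91 such rows among 17607 genes, and the 78 with a mean of at least 10 normalised reads over the 6 libraries were kept. Of the 78, 76 encode channel subunits or their regulators and 2 (Kcnq1ot1 and Kcnmb4os2) are noncoding RNAs named after a neighbouring channel gene. The series measured gene expression by RNA sequencing in the auditory nerve of CBA/CaJ mice, an inbred strain, with 3 old mice aged 2.5 years and 3 young mice aged 2 months. The nerve was dissected out of the cochlea and both cochleas of a mouse were pooled, so each library is a separate animal, and no genotype or treatment was given beyond age.

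Potassium channels let potassium ions leave or enter a cell and set its resting potential, the shape of its action potential and how fast it can fire again. Voltage-gated channels are built from several alpha subunits, often with auxiliary subunits, and open when the membrane depolarises. Inward rectifiers and tandem-pore leak channels hold the resting potential and buffer potassium in glia, and calcium- or sodium-activated channels follow the activity of the cell. The spiral ganglion neurons of the auditory nerve are known for brief action potentials at high rates, which rest on low-threshold Kcna and high-threshold Kcnc channels, and the cochlea is known for its potassium-rich endolymph, which the stria vascularis secretes through Kcnq1 and Kcne1.

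The table holds size-factor normalised counts, and dividing by the value of 1 read gave 34587979 to 40841478 whole reads per library. Neuronal and Schwann cell markers were present in every library. The summed level of 15 neuron markers was 248758 to 368279 in old and 410279 to 445133 in young libraries, and of these 15 genes 4 were lower (median log2 fold change -0.40). That of 10 myelinating Schwann cell markers was 420726 to 475958 in old and 427431 to 498015 in young libraries (1 higher, 4 lower). In bulk tissue, fewer cells of a type and less RNA per cell cannot be told apart. Young 1 and old 2 stood apart from the other libraries of their groups in part of the members, and counts are given with and without them.

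More potassium channel genes were lower than higher in old nerves. Of the 78 members 76 passed the filter on low reads and were tested, 74 of them coding, and 23 of these 74 fell while 2 rose (limma on log2(value + 1), adjusted p under 0.05 over all 15882 tested genes). These were 31.1% and 2.7% of the coding members, while across all tested genes 18.7% were called lower, 15.9% higher and 34.6% in either direction. With edgeR's quasi-likelihood test 24 coding members fell and 2 rose, where 18% of all tested genes were called lower, 16.1% higher and 34.1% in either direction. The median log2 fold change, old minus young, was -0.59 over the 74 members, and -0.00080 over all tested genes. Called falls were also more frequent among abundant genes in general, with 27.4% of all tested genes at a mean of 1000 or more called lower, against 11 of 25 members in that range. All 3 old libraries lay below all 3 young libraries in 27 of the 74 members, where 26.3% of all tested genes did so, and above them in 4, where 25.5% did so.

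The voltage-gated alpha subunits held 11 of the falls among 30 tested genes, with 1 rise and a median log2 fold change of -0.80. Among the 11 auxiliary genes (Kcnab, Kcne, Kcnip and Kcnrg) 2 fell, among 12 inward rectifiers 4 fell and 1 rose, among 10 Kcnk leak channels 2 fell, and among 11 calcium- or sodium-activated genes 4 fell. The medians of these classes were 0.08, -0.51, -0.09 and -0.57, and the shares called lower were 18.2%, 33.3%, 20% and 36.4%. The share was 36.7% among the voltage-gated alpha genes. Of all tested genes 18.7% were called lower and 15.9% higher, so the auxiliary and Kcnk classes were near the share of all genes. The summed normalised reads of the voltage-gated alpha genes were 94531 ± 19587 in old and 167828 ± 4013 in young nerves, and those of the inward rectifiers 19647 ± 2168 in old and 15933 ± 716 in young nerves (SD, n = 3 each). A few genes carried these sums, with 3 genes holding 70.0% of the voltage-gated alpha sum and Kcnj10, Kcnj16 and Kcnj13 holding 83.4% of the inward rectifier sum. Whether the classes differed from each other was not tested.

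**Figure D1:**
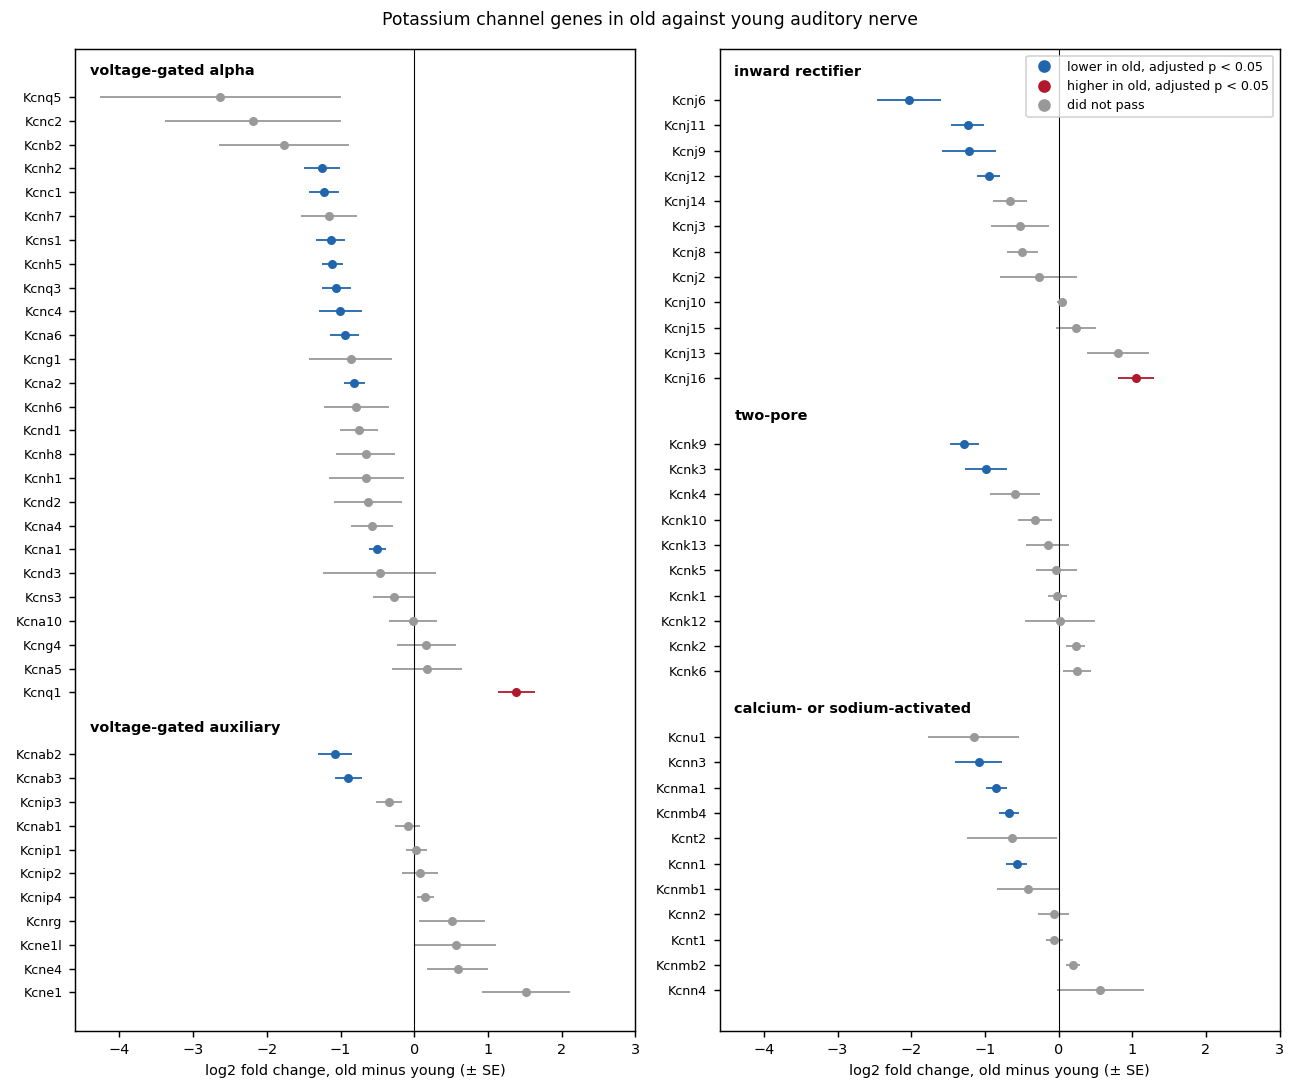
Log2 fold change (old minus young, log2(value + 1) scale) of 70 tested coding potassium channel genes by class, with bars for the SE and colour for the call at an adjusted p under 0.05. Of the 26 voltage-gated alpha genes shown 23 lie left of 0, and the genes to the right of 0 that passed are Kcnq1 and Kcnj16.

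Promoter windows are shown for Kcnc1, Kcna2 and Kcns1, which fell, and for Kcnj16, which rose, as members whose window begins at the start of the deposited gene. They run 5′ to 3′ from 250 bases before to 50 bases after the start and come from RefSeq (GRCm38.p6). Capitals mark the GC box GGGCGG, which Sp1-type factors bind, or its reverse complement. The windows lie at chr7:46396218-46396517 (plus strand), chr3:107101317-107101616 (plus strand), chr2:164171064-164171363 (minus strand) and chr11:110967783-110968082 (plus strand).
Kcnc1: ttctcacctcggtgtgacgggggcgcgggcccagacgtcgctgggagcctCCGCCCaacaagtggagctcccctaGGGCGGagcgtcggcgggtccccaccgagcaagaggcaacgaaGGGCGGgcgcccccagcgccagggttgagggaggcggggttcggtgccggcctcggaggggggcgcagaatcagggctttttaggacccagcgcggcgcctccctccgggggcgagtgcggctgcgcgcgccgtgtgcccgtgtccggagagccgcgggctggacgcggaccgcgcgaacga
Kcna2: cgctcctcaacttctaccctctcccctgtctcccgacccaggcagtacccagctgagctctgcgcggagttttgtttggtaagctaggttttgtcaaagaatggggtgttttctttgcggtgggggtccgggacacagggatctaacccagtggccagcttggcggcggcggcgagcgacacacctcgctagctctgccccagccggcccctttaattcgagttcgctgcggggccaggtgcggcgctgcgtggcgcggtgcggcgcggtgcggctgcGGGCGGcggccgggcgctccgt
Kcns1: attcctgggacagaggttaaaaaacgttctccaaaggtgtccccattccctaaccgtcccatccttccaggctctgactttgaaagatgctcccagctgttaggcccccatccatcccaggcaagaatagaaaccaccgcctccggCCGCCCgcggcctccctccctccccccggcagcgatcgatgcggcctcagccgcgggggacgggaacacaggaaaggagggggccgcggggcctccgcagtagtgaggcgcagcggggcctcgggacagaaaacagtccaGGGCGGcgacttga
Kcnj16: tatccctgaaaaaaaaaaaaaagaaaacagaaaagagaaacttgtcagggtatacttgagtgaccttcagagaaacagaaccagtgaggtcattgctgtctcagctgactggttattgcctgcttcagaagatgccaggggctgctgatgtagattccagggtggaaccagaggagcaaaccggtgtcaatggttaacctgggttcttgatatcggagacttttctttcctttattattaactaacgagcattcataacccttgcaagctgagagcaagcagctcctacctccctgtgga
The windows of Kcnc1, Kcna2 and Kcns1 held 3, 1 and 2 GC boxes and 41, 31 and 22 CpG pairs. The Kcnj16 window held no GC box and 3 CpG pairs, and 1 of the other 3 Kcnj16 windows held a GC box. A GC box on either strand was found for 11 of the 15 falling members with a window and for 22 of the 38 that did not pass, against 38.2% of all 27025 genes with a window (35.7% of their 32851 windows). The motif TATAAA on either strand, the TATA box, was found for 1 of the 15 falling members and for 3 of the 38, against 15.7% of all genes (13.6% of windows). Kcnj16, the only rising member with a window, had it in 1 window other than the one printed. The counts and shares per gene take any of its windows, so a gene with several starts has more chances of a match. The shares over all genes also include genes that were not tested here, so that set is not matched to the members in expression.

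The genes with the highest level per transcript length were Shaker-type alpha subunits, a leak channel and a beta subunit. Levels per length are normalised reads per kb of the longest coding transcript in GENCODE M21. Kcna1 stood first at 8051 ± 1092 in old and 11320.4 ± 322 in young nerves (SD, n = 3 each). Kcnk1 followed at 5707 ± 860.08 in old and 5757 ± 549 in young nerves and Kcnab2 at 3771 ± 1353 in old and 7609 ± 284 in young nerves. In old nerves the means of Kcna1 and Kcnk1 differed by more than either SD, and those of Kcna2 (2314 ± 436) and Kcnj16 (2178 ± 600.20) did not. In young nerves Kcnj16 (1057 ± 283) stood below Kcna2 (4016 ± 125).

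**Figure D2:**
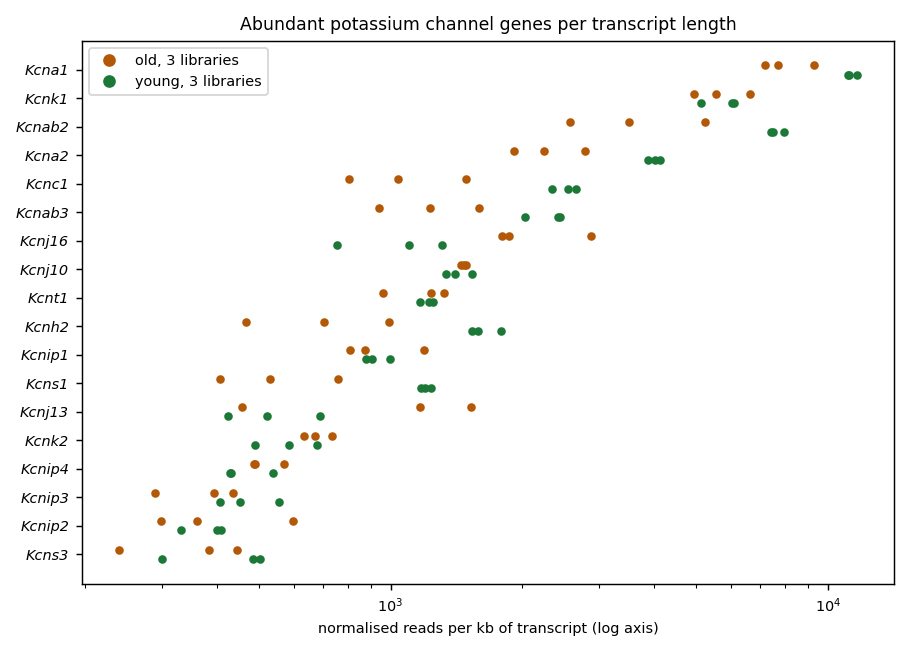
Normalised reads per kb of transcript (log axis) of 18 members with a high mean level per length, with 1 point per library, old above young in each row. Old points lie left of all young points in Kcna1, Kcna2, Kcnc1, Kcnab2, Kcnab3, Kcnh2 and Kcns1, and right of them in Kcnj16.

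The Shaker-type subunits Kcna1 and Kcna2, which form the low-threshold channel beside the nodes of Ranvier and keep auditory neurons from firing repeatedly, both fell. Kcna1 (chromosome 6 from 126636463 to 126645801, mm10) had normalised read counts of 28997, 30952 and 37408 in old nerves 1, 2 and 3, against 44789.7, 47129 and 44979 in young nerves 1, 2 and 3. The groups did not overlap, and old 1 was the lowest library. The log2 fold change was -0.50 ± 0.12 (adjusted p = 0.0176, limma), and the adjusted p was 0.0583 without old 2, 0.0677 without young 2 and 0.0583 without young 3. Kcna2 (chromosome 3 from 107101567 to 107115005) had 22171, 26054 and 32184 in old nerves 1, 2 and 3, against 46543, 47945 and 45049 in young nerves 1, 2 and 3, again with old 1 lowest and no overlap. Its fall was larger, at -0.81 ± 0.14 (adjusted p = 0.00784). Kcna6, a further Shaker-type subunit of axons, had 579, 852 and 771 in old nerves 1, 2 and 3, against 1794, 1196 and 1253 in young nerves 1, 2 and 3 (log2 fold change -0.94 ± 0.20, adjusted p = 0.0125). Kcna4, Kcna5 and Kcna10 did not pass, with log2 fold changes of -0.58, 0.17 and -0.02 at means of 49, 38.1 and 323 over the 6 libraries.

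The ratio of Kcna2 to Kcna1 within a library does not depend on the scaling between libraries. It was 0.765, 0.842 and 0.86 in old 1, 2 and 3, against 1.04, 1.02 and 1 in young 1, 2 and 3, so the old libraries lay below the young ones (exact permutation test of the log2 ratio, two-sided, p = 0.1, the smallest that 3 against 3 can give; 0.15 adjusted over 6 ratios). The Kcna2 transcript used here has 11582 nt and that of Kcna1 4031 nt. With smooth trends in transcript length and GC content removed from each library, the log2 fold changes were -0.42 for Kcna1 and -0.47 for Kcna2, so their difference was -0.05 in place of -0.31.

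The high-threshold Kcnc channels repolarise the membrane fast enough for high firing rates, and Kcnc1 was among the genes that fell. Kcnc1 (chromosome 7 from 46396468 to 46438704), whose promoter window is printed above, had 6235, 8083 and 11538 in old nerves 1, 2 and 3, against 18208, 20566 and 19783 in young nerves 1, 2 and 3. Every old library was below every young one, and old 3 stood closest to the young group. The log2 fold change was -1.22 ± 0.20 (adjusted p = 0.00722), and removing the length and GC trends left the call in place (-0.73, adjusted p = 0.02).

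Kcnc4, an A-type member of the same subfamily, had 186, 213 and 182 in old nerves 1, 2 and 3, against 637, 299 and 305 in young nerves 1, 2 and 3. Young 1 was more than 2 times the other young libraries, yet no old library reached the young group. The gene fell (log2 fold change -1.0 ± 0.29, adjusted p = 0.0351), but the call was lost without old 1 (0.0907), old 2 (0.0616), old 3 (0.0727) or young 2 (0.0512), and once trends were taken out (-0.70, adjusted p = 0.12). Kcnc2 did not pass and is described below with the genes high in young 1.

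The beta subunits bind Kcna channels inside the cell. Kcnab2 (chromosome 4 from 152390744 to 152477549), the highest of them per length, had 10079, 13755 and 20538 in old nerves 1, 2 and 3, against 29066, 31117 and 29343 in young nerves 1, 2 and 3. Old 1 was the lowest and the groups did not overlap (log2 fold change -1.07 ± 0.23, adjusted p = 0.0137; 0.0541 without young 2). Kcnab3 fell too, by 0.90 on the log2 scale (adjusted p = 0.0117). Kcnab1 did not pass, with 856, 999 and 1315 in old nerves 1, 2 and 3, against 996, 1257 and 1082 in young nerves 1, 2 and 3 (log2 fold change -0.09 ± 0.17), and its groups overlapped. The ratio of Kcnab2 to Kcnab1 was 11.8, 13.8 and 15.6 in old 1, 2 and 3, against 29.2, 24.8 and 27.1 in young 1, 2 and 3, with all old libraries below all young ones (exact permutation p = 0.1, two-sided; 0.15 adjusted over 6 ratios). With the trends removed, the log2 fold changes of the beta subunits were -0.80 for Kcnab2, -0.88 for Kcnab3 and -0.21 for Kcnab1.

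**Figure D3:**
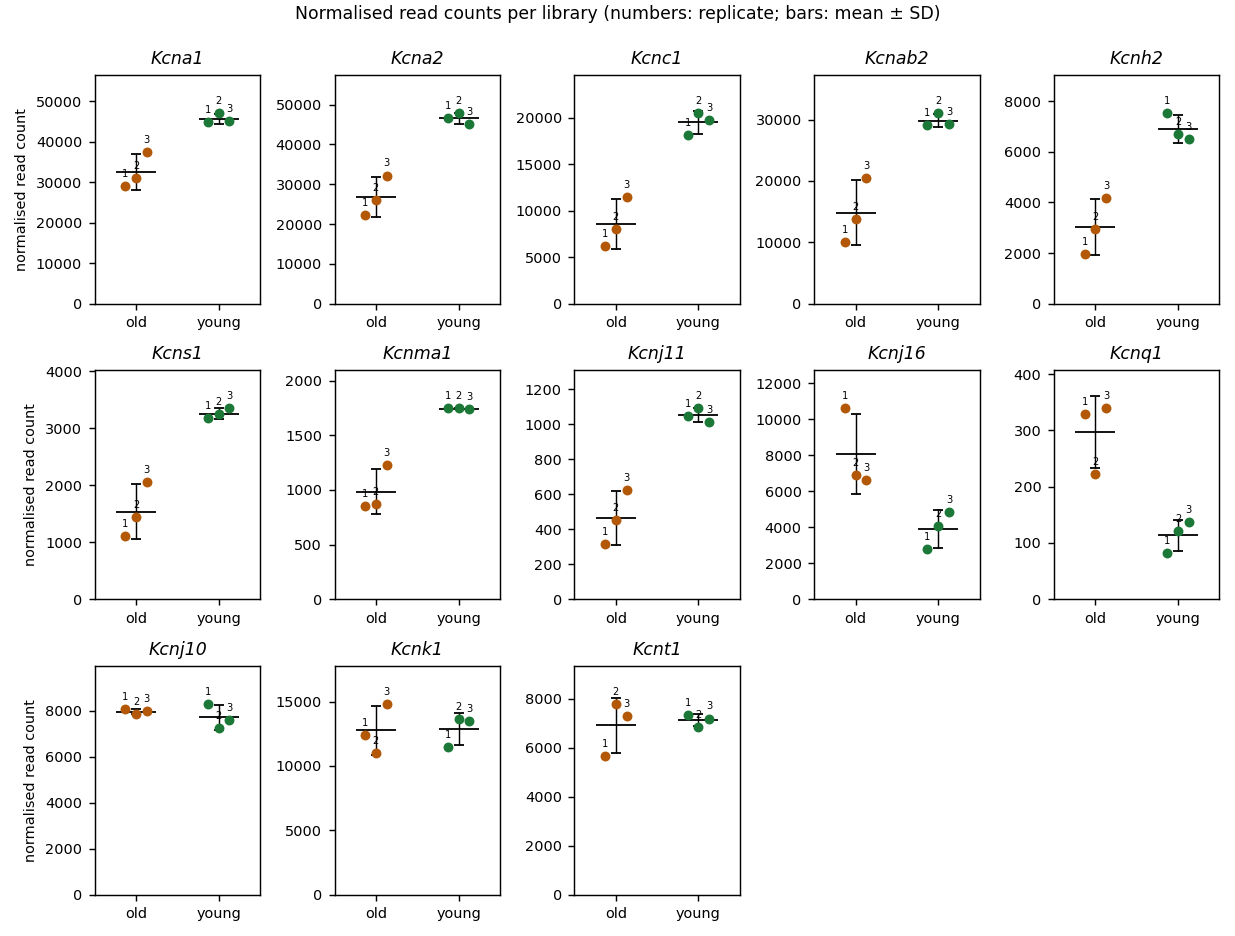
Normalised read counts per library for 13 members, old left of young, with points numbered by replicate and bars for the mean ± SD (n = 3). In the upper 5 panels and in those of Kcns1, Kcnma1 and Kcnj11 all old libraries lie below all young ones, in Kcnj16 and Kcnq1 above them, and in Kcnj10, Kcnk1 and Kcnt1 the groups overlap.

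Kcnq3 is a subunit of the M-type channel, which damps excitability at the node and the axon initial segment, and it fell. Its counts were 207, 316 and 343 in old nerves 1, 2 and 3, against 636, 593 and 543 in young nerves 1, 2 and 3, without overlap (log2 fold change -1.06 ± 0.20, adjusted p = 0.00885). It still passed once the trends were taken out (-0.75, adjusted p = 0.0312).

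Among the Kcnh genes, of the ether-a-go-go family, Kcnh2 and Kcnh5 fell. Kcnh2, the ERG channel known from cardiac repolarisation, had 1975, 2970.1 and 4187 in old nerves 1, 2 and 3, against 7546, 6687 and 6494 in young nerves 1, 2 and 3 (log2 fold change -1.25 ± 0.24, adjusted p = 0.0104). Kcnh5 had 325, 432 and 467 in old nerves 1, 2 and 3, against 929.89, 849 and 837 in young nerves 1, 2 and 3, with the smallest adjusted p of all members (log2 fold change -1.11 ± 0.15, adjusted p = 0.00506). For Kcnh7, an ERG channel of neurons, the counts were 81.4, 147 and 155 in old nerves 1, 2 and 3, against 462, 198 and 227 in young nerves 1, 2 and 3. Its groups did not overlap, but it missed the threshold in limma (log2 fold change -1.15 ± 0.38, adjusted p = 0.0504) and passed in edgeR's quasi-likelihood test (adjusted p = 0.0497). Kcnh1, Kcnh6 and Kcnh8 had negative log2 fold changes that did not pass (-0.65, -0.78 and -0.66).

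Kcns1 (chromosome 2 from 164163619 to 164171113) encodes a silent subunit that forms no channel alone and modifies Kcnb channels. Its counts were 1104, 1437 and 2055 in old nerves 1, 2 and 3, against 3176, 3251 and 3352 in young nerves 1, 2 and 3 (log2 fold change -1.14 ± 0.20, adjusted p = 0.0081), so the highest old library was below the lowest young one. Kcns3, of the same subfamily, did not pass (-0.28).

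A-type channels of the Kcnd subfamily, which delay the first spike, did not pass in limma or edgeR (1 of the 3 was lower at an unadjusted p under 0.05). Kcnd1 had 328, 579.78 and 622 in old nerves 1, 2 and 3, against 987, 703 and 812 in young nerves 1, 2 and 3, without overlap (log2 fold change -0.75 ± 0.25, adjusted p = 0.0564; adjusted p = 0.036 without old 3). The authors' deposited comparison listed Kcnd1 as lower (FDR 0.0185), while Kcnd2 and Kcnd3 did not pass there (FDR 0.151 and 0.529). Kcnd2 had 150.12, 225 and 268 in old nerves 1, 2 and 3, against 685, 230.02 and 213 in young nerves 1, 2 and 3 and Kcnd3 had 214, 696 and 302 in old nerves 1, 2 and 3, against 1655, 210.36 and 344 in young nerves 1, 2 and 3, both with young 1 far above the rest (log2 fold changes -0.63 ± 0.46 and -0.47 ± 0.77). The Kcnip genes, calcium-binding partners of Kcnd channels, ranged from -0.35 in Kcnip3 to 0.15 in Kcnip4, and none of the 4 passed in limma or edgeR, nor had an unadjusted p under 0.05 (0 of 4). The highest per length, Kcnip1, had 1871, 2033 and 2768 in old nerves 1, 2 and 3, against 2039, 2312 and 2102 in young nerves 1, 2 and 3. Kcnmb1 lies within the span of Kcnip1, and since no source used here says whether counting followed strand, reads of overlapping genes cannot be separated.

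Kcnq1, the pore of the strial secretory channel, rose. Kcnq1 (chromosome 7 from 143107254 to 143427042) had 329.83, 223 and 339 in old nerves 1, 2 and 3, against 82.7, 122 and 137 in young nerves 1, 2 and 3. All old libraries were above all young ones, with a mean 2.62 times that of young nerves (log2 fold change 1.39 ± 0.25, adjusted p = 0.00823). Kcne1, its subunit, had 49.7, 48.4 and 39.6 in old nerves 1, 2 and 3, against 5.64, 36.4 and 16.5 in young nerves 1, 2 and 3, a low level without overlap that did not pass (log2 fold change 1.52 ± 0.60, adjusted p = 0.0874; 0.0408 without young 2). Kcnq1ot1, a noncoding RNA whose position lies within Kcnq1 on the opposite strand, fell instead, with 787, 779.99 and 865 in old nerves 1, 2 and 3, against 1043, 989 and 1009.8 in young nerves 1, 2 and 3 (log2 fold change -0.32 ± 0.08, adjusted p = 0.0195). That call was lost without old 2 (0.0561), young 1 (0.0671), young 2 (0.0606) or young 3 (0.0681), and its sign turned with the trends removed (0.27). Kcne4 had 242, 603 and 195 in old nerves 1, 2 and 3, against 268, 192 and 163 in young nerves 1, 2 and 3 and did not pass (0.59).

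Markers of marginal cells of the stria vascularis, which use Kcnq1 and Kcne1 for secretion, were read beside this. Of 9 listed genes 6 were tested and 3 were higher, among them Kcnq1 itself and Atp13a5 (1728, 2178 and 1993 in the old and 965, 821 and 1158 in the young libraries), while Esrrb was lower (272, 477 and 479 in the old and 1237, 605 and 728 in the young libraries). The summed level of the 7 markers that are no channel members was 19390.4 to 24451 in old and 18466 to 23416 in young libraries, mostly from Slc12a2, and Bsnd and Dnmt3l were among those at 0 in at least 1 library. The part of marginal cells in the rise of Kcnq1 was not tested.

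Kcnj10 and Kcnj16 join in the inward rectifier of glia, and Kcnj10 also carries the current of strial intermediate cells that sets up the endocochlear potential. Kcnj16 (chromosome 11 from 110968033 to 111027967) had 10621, 6921 and 6642 in old nerves 1, 2 and 3, against 2787, 4089 and 4863 in young nerves 1, 2 and 3. Old 1 was the highest, and every old library was above every young one (log2 fold change 1.05 ± 0.25, adjusted p = 0.0176; 0.0536 without young 2). Kcnj10 (chromosome 1 from 172341210 to 172374085) had 8065, 7848 and 7966 in old nerves 1, 2 and 3, against 8298, 7228 and 7600.3 in young nerves 1, 2 and 3, with overlapping groups and a log2 fold change of 0.05 ± 0.07 (adjusted p = 0.622). The ratio of Kcnj16 to Kcnj10 was 1.32, 0.882 and 0.834 in old 1, 2 and 3, against 0.336, 0.566 and 0.64 in young 1, 2 and 3 (exact permutation p = 0.1, two-sided; 0.15 adjusted over 6 ratios), higher in every old library. In the satellite and nonmyelinating glia list 2 of 8 genes were higher and 3 lower, with a summed level of 179042 to 226602 in old and 122059 to 135059 in young libraries. Their log2 fold changes ran from -1.15 to 1.23 with a median of 0.17, so the sum does not stand for the list as a whole. The 10 supporting cell markers (3 higher) summed to 62566 to 85509 in old and 45504 to 62065 in young libraries. Of the 8 listed melanocyte or intermediate cell genes 7 were tested and 2 were higher, the 7 that are no member summed to 3656 to 4870.3 in old and 3219.8 to 3659 in young libraries, and Mlana was at 0 in young 1. The part of these cells in the rise of Kcnj16 was not tested.

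Other inward rectifiers fell. Kcnj11, the pore of the ATP-sensitive channel of neurons, had 315, 449.78 and 621 in old nerves 1, 2 and 3, against 1047, 1090.1 and 1009.8 in young nerves 1, 2 and 3 (log2 fold change -1.24 ± 0.22, adjusted p = 0.00844). Its partner Abcc8, the sulfonylurea receptor, fell as well, with 915, 1227 and 1548 in old nerves 1, 2 and 3, against 2289, 2539 and 2449 in young nerves 1, 2 and 3 (log2 fold change -1.01 ± 0.18, adjusted p = 0.00784). The vascular form of this channel pairs Kcnj8 with Abcc9, and neither passed, with 113 ± 24.9 in old and 157 ± 17.5 in young nerves for Kcnj8 (SD, n = 3 each; log2 fold change -0.49 ± 0.21, adjusted p = 0.11) and a log2 fold change of -0.24 ± 0.15 for Abcc9. Kcnj12, a strong inward rectifier, had 272, 372 and 368 in old nerves 1, 2 and 3, against 727, 569 and 651 in young nerves 1, 2 and 3 (log2 fold change -0.95 ± 0.16, adjusted p = 0.00725).

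The G-protein-gated subunits Kcnj6 and Kcnj9 fell at low counts. Kcnj6 had 7.4, 13.3 and 9.67 in old nerves 1, 2 and 3, against 75.2, 36.4 and 29.7 in young nerves 1, 2 and 3 (log2 fold change -2.03 ± 0.43, adjusted p = 0.0132), the largest fall among called members, and Kcnj9 had 29.6, 52.2 and 57.1 in old nerves 1, 2 and 3, against 156, 71.8 and 104 in young nerves 1, 2 and 3 (log2 fold change -1.22 ± 0.37, adjusted p = 0.0386). The call of Kcnj9 was lost without old 1 (0.101), old 2 (0.0608), young 1 (0.108) or young 3 (0.0997), and once trends were taken out (-0.98, adjusted p = 0.0734). Their usual partner Kcnj3 did not pass (-0.52), with 748 in young 1 and 195 to 382 in the other 5 libraries. Kcnj13, a rectifier of transporting epithelia, had 1484, 1938 and 582 in old nerves 1, 2 and 3, against 664, 539.66 and 874 in young nerves 1, 2 and 3. Its adjusted p was 0.178 (0.81 ± 0.42) and 0.0065 without old 3, the library that lay within the young range.

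Leak channels of the Kcnk family split by gene. Kcnk1, the highest of them per length, had 12421, 11022 and 14823 in old nerves 1, 2 and 3, against 11452, 13647 and 13503 in young nerves 1, 2 and 3, with overlapping groups (log2 fold change -0.02 ± 0.13, adjusted p = 0.923). Kcnk2, a mechanically and thermally gated leak channel, had 2398, 2630.3 and 2266 in old nerves 1, 2 and 3, against 1747, 2091 and 2431 in young nerves 1, 2 and 3 and did not pass (0.23 ± 0.13). The acid-sensitive channels Kcnk9 and Kcnk3 fell, with 57.1, 67.4 and 78.3 in old nerves 1, 2 and 3, against 188, 145 and 162 in young nerves 1, 2 and 3 for Kcnk9 (log2 fold change -1.28 ± 0.19, adjusted p = 0.00598). For Kcnk3 the counts were 92, 148 and 164 in old nerves 1, 2 and 3, against 356, 207 and 236 in young nerves 1, 2 and 3 (log2 fold change -0.98 ± 0.28, adjusted p = 0.0349), without overlap. Leaving out any library except old 3 ended the call of Kcnk3, with adjusted p of 0.0834 without old 1, 0.0568 without old 2, 0.0937 without young 1, 0.0573 without young 2 and 0.0764 without young 3.

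Kcnk13, a leak channel of microglia, was at 74, 147 and 95.7 in old nerves 1, 2 and 3, against 147, 92.4 and 106 in young nerves 1, 2 and 3 (log2 fold change -0.15 ± 0.30, adjusted p = 0.719), with no separation of the groups. All 12 macrophage markers were higher in old nerves, at a summed level of 16004 to 23104 in old and 5848 to 7555 in young libraries. The remaining leak channels, Kcnk4, Kcnk5, Kcnk6, Kcnk10 and Kcnk12, had log2 fold changes from -0.60 in Kcnk4 to 0.25 in Kcnk6, and none passed in limma or edgeR (0 of 5 at an unadjusted p under 0.05).

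Of the channels gated by calcium, the large-conductance pore gene Kcnma1 fell. It had 854, 875 and 1225 in old nerves 1, 2 and 3, against 1748, 1747 and 1738 in young nerves 1, 2 and 3, or 985 ± 209 in old and 1744 ± 5.61 in young nerves (SD, n = 3 each), with no overlap (log2 fold change -0.84 ± 0.14, adjusted p = 0.00712). Its neuronal beta subunit Kcnmb4 had 188, 183 and 185 in old nerves 1, 2 and 3, against 272, 282 and 340.26 in young nerves 1, 2 and 3 (log2 fold change -0.68 ± 0.13, adjusted p = 0.0104), again without overlap. Kcnmb2, which inactivates the channel, had 445, 466 and 495 in old nerves 1, 2 and 3, against 402, 419 and 406 in young nerves 1, 2 and 3 and did not pass (log2 fold change 0.19 ± 0.09, adjusted p = 0.148), although all old libraries were above all young ones. The ratio of Kcnmb4 to Kcnma1 overlapped between the groups (exact permutation p = 0.5, two-sided; 0.5 adjusted over 6 ratios).

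The small-conductance genes Kcnn1 and Kcnn3 fell, and each lost the call in most of the fits that left out 1 library. Kcnn1 had 251, 295 and 351 in old nerves 1, 2 and 3, against 433, 429 and 457 in young nerves 1, 2 and 3 (log2 fold change -0.57 ± 0.14, adjusted p = 0.0214), and its adjusted p was 0.0525, 0.0554, 0.0664 and 0.0756 without old 2, young 1, young 2 and young 3. Kcnn3 had 28.5, 50.3 and 29 in old nerves 1, 2 and 3, against 102, 64.9 and 62.8 in young nerves 1, 2 and 3 (log2 fold change -1.09 ± 0.32, adjusted p = 0.0374) and passed without old 2 only, with adjusted p of 0.105, 0.0815, 0.111, 0.0809 and 0.0707 without old 1, old 3, young 1, young 2 and young 3. Kcnn2, the small-conductance channel of hair cell efferent synapses, had 1268, 847 and 1316 in old nerves 1, 2 and 3, against 999, 1519 and 1078 in young nerves 1, 2 and 3 (log2 fold change -0.07 ± 0.21, adjusted p = 0.825), with full overlap. None of the 10 hair cell markers passed in limma or at an unadjusted p under 0.05 (0 of 10), and their summed level was 2385 to 5525 in old and 2744 to 6856 in young libraries. Kcnn4, of intermediate conductance, had few reads, with 31.7, 34.2 and 37.7 in old nerves 1, 2 and 3, against 40.4, 7.86 and 36.3 in young nerves 1, 2 and 3 (log2 fold change 0.57 ± 0.59, adjusted p = 0.482).

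Kcnt1, a sodium-activated channel, was the highest gene of its class per length. It had 5649, 7789 and 7289 in old nerves 1, 2 and 3, against 7339, 6857 and 7189.6 in young nerves 1, 2 and 3 (log2 fold change -0.06 ± 0.12, adjusted p = 0.736), with old 1 below and old 2 above all young libraries. Kcnt1, Kcnj10 and Kcnk1 had log2 fold changes of -0.06, 0.05 and -0.02, with SE of 0.12, 0.07 and 0.13.

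A part of the voltage-gated genes followed the library more than the age group. Kcnc2 had 114, 1745 and 126 in old nerves 1, 2 and 3, against 4558, 477 and 1103 in young nerves 1, 2 and 3, so young 1 and old 2 each stood far above the other libraries of their group. Kcnq5, an M-type subunit, had 28.5, 352 and 5.8 in old nerves 1, 2 and 3, against 1406, 46.2 and 252 in young nerves 1, 2 and 3, and Kcnb2, a delayed rectifier, had 70.8, 282 and 62.9 in old nerves 1, 2 and 3, against 1291, 134 and 292 in young nerves 1, 2 and 3. Their log2 fold changes were -2.19 ± 1.19, -2.63 ± 1.63 and -1.77 ± 0.89, and none of these 3 genes passed in limma or edgeR (0 of 3 at an unadjusted p under 0.05). Without both young 1 and old 2, Kcnc2 passed (adjusted p = 0.0302), and without old 2 alone its adjusted p was 0.0323.

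In 9 of the 74 tested coding members, or 12.2%, young 1 exceeded both other young libraries and old 2 both other old libraries by more than 1.5 times, where 1.25% of all tested genes did so. They included Kcnb2, Kcnc2, Kcnd3, Kcnj2, Kcnn3, Kcnq5 and Kcnrg. The fold was chosen after the values were seen, and the counts are a description. Among the neuron markers Syt1, a vesicle calcium sensor, had the same shape, with 232, 1015 and 154 in old nerves 1, 2 and 3, against 6020.3, 289.98 and 570.41 in young nerves 1, 2 and 3. Syt1 is 1 of the 15 listed, and the other neuron markers were not counted for this shape. The sum of the 15 was highest in young 1, but within the old group it was highest in old 3 (248758, 307221 and 368279 in old 1, 2 and 3). The 8 oligodendrocyte markers (1 higher, 0 lower) summed to 35361 to 38344 in old and 37377 to 38743 in young libraries. The 10 osteoblast and osteocyte markers, of which 6 were lower, summed to 3216, 5223 and 2744 in old 1, 2 and 3, against 9709, 7027 and 6991 in young 1, 2 and 3. They were thus highest in old 2 within the old and in young 1 within the young group, and Bglap was at 0 in at least 1 library. The part of any cell type in this pattern was not tested.

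**Figure D4:**
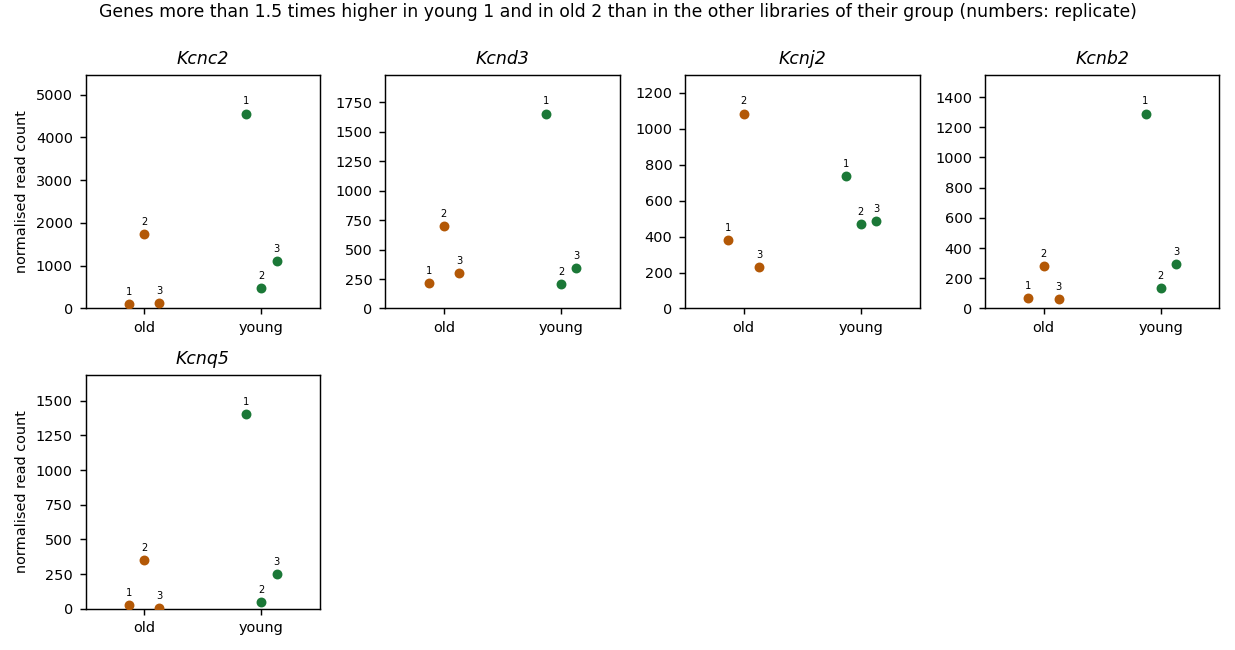
Normalised read counts per library of 5 members with a mean of at least 100 that exceeded the other libraries of their group by more than 1.5 times in both young 1 and old 2, old left of young, with points numbered by replicate. Point 1 of the young and point 2 of the old group stand above the other points of their group in every panel.

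Within the old group, 17 of the 23 falling members had their lowest value in old 1 and their highest in old 3. How many of all tested genes had this order was not counted, so it cannot be called particular to the members. The neuron markers had this order too, with sums of 248758, 307221 and 368279 in old 1, 2 and 3, against 445133, 416604 and 410279 in young 1, 2 and 3. The mean of these sums was 0.46 lower in old nerves on the log2 scale. Each member was also divided by the neuron marker sum of its library, a step added after seeing the data. Of the 23 falling members 17 still had all old libraries below all young ones after this division, and 6 overlapped, among them Kcna1, Kcnc4, Kcnmb4, Kcnn1 and Kcnn3. The divisor is smaller in every old library and so raises every gene in old relative to young nerves. On this scale 5.17% of all tested genes had all old libraries below all young ones and 53.9% above them, and of the 2969 genes called lower before the division 27% stayed below.

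Per 1000 normalised reads of neuron markers, Kcna1 was at 106 ± 8.9 in old and 108 ± 6.45 in young nerves. Kcnc1 was at 27.6 ± 3.32 in old and 46.2 ± 4.59 in young nerves and Kcna2 at 87.1 ± 2.17 in old and 109.82 ± 5.26 in young nerves (SD, n = 3 each). On this scale the groups overlapped in Kcna1 and did not in Kcnc1 and Kcna2. Among the 49 members that did not pass, 14 lay above the young range in all old libraries after the division, where 57.6% of all 10389 genes that did not pass did so. The neuron list holds genes that themselves fell, such as Nefm (23230.0, 35202 and 41006 in the old and 72405, 63871 and 63967 in the young libraries), so it is no measure of cell number.

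**Figure D5:**
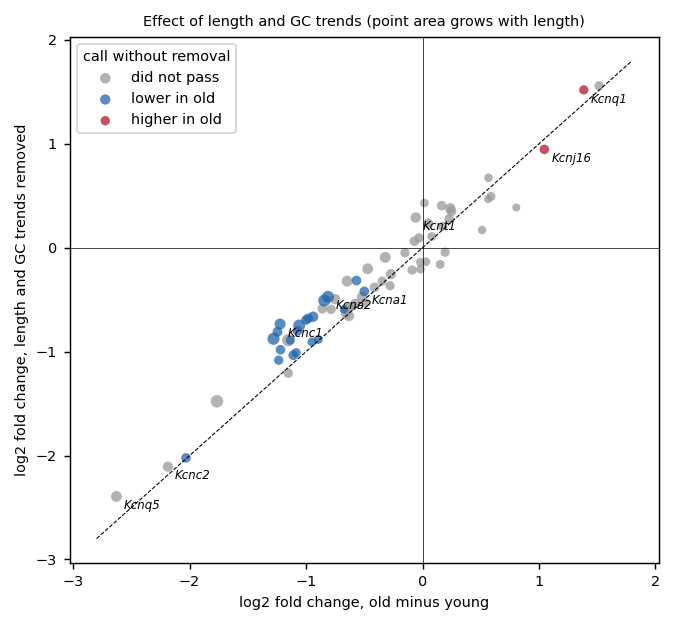
Log2 fold change of 70 tested coding members as reported (x axis) against that with smooth trends in transcript length and GC content removed (y axis), coloured by the call without removal. The 21 falling genes shown lie above the dashed line of equality, as Kcnc1 does with -1.22 as reported and -0.73 with the trends removed.

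Since many channel transcripts are long, the members were read with the length and GC trends removed. The tested coding members had a median transcript of 3808.5 nt, against 3165.5 nt in all tested coding genes. With the trends removed 17 coding members fell and 2 rose, where 12.2% of all tested genes were called lower and 10.1% higher, and the members' median was -0.45. Of the falling coding members 6 no longer passed, among them Kcnc4, Kcnj9, Kcnk3, Kcnn1 and Kcnn3. Among the 33 members over 4000 nt the falls numbered 12, and 10 with the trends removed, and among the 41 shorter ones 11 and 7. The 2 rises were among the shorter ones. The median log2 fold change was -0.66 in the longer members and -0.09 in the shorter ones. With the trends removed these medians were -0.51 and -0.21. Shares of all tested genes by length were not counted.

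Partner genes without a Kcn symbol also leaned lower. They were taken as a list of 27 genes, most of which anchor, modify or traffic potassium channels. Tmem175, Tmem38a and Tmem38b on this list are cation channels themselves, and Tmem38a was among the falls (log2 fold change -0.35, adjusted p = 0.0396, limma). The call of Tmem38a was lost without old 1 (0.061), old 2 (0.0525), young 1 (0.116), young 2 (0.0943) or young 3 (0.0925). It held with the trends removed (-0.44, adjusted p = 0.0229). Of the 27, 13 fell in limma and 12 in edgeR, with a median log2 fold change of -0.46, where 18.7% of all tested genes were called lower in limma and 18% in edgeR, and 27.4% in limma at a mean of 1000 or more. With the trends removed 9 were lower and 2 higher, where 12.2% and 10.1% of all tested genes were. None was called higher by either tool without that removal, and 2 were higher at an unadjusted p under 0.05. Cntn2 and Cntnap2, which hold Kcna channels beside the node, had log2 fold changes of -0.86 ± 0.15 (adjusted p = 0.00804) and -0.46 ± 0.14 (adjusted p = 0.0385). The call of Cntnap2 was lost without old 1 (0.0673), old 2 (0.078), young 1 (0.109), young 2 (0.101) or young 3 (0.0742), and with both trends taken out it was -0.20, adjusted p = 0.288. Lgi2 and Lgi3, secreted proteins of the LGI family, had 2431, 2990.0 and 4454 in old nerves 1, 2 and 3, against 6929, 8684 and 7698 in young nerves 1, 2 and 3 for Lgi2 (log2 fold change -1.28 ± 0.21, adjusted p = 0.00707) and a log2 fold change of -0.69 ± 0.16 for Lgi3 (adjusted p = 0.0176; 0.0511, 0.0575 and 0.0565 without young 1, young 2 and young 3). Adam23, a receptor of LGI proteins, fell (log2 fold change -0.89 ± 0.18, adjusted p = 0.0117), while Adam22 did not pass (log2 fold change -0.28 ± 0.10, adjusted p = 0.0675). Of the scaffolds, Dlg4 (log2 fold change -0.90 ± 0.17, adjusted p = 0.00861) and Dlg2 (log2 fold change -0.53 ± 0.15, adjusted p = 0.0294) fell and Dlg1 did not pass (0.19). Dlg2 lost the call without old 1 (0.084), old 2 (0.0822), young 2 (0.102) or young 3 (0.087), and with both trends taken out (-0.34, adjusted p = 0.132). Amigo1, an auxiliary protein of Kcnb channels, had 3353, 3951 and 3769 in old nerves 1, 2 and 3, against 6665, 5131 and 5591 in young nerves 1, 2 and 3 (log2 fold change -0.65 ± 0.11, adjusted p = 0.00775). Leaving out young 1 gave 8 falls, young 2 gave 7 and young 3 gave 7, and 4 were left when old 2 and young 1 were both omitted.

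Without both young 1 and old 2, with 2 libraries left per group, 9 of 75 members tested fell and 1 rose, where 5.97% of all tested genes were called lower and 5.25% higher. The rise was that of Kcnq1 (adjusted p = 0.0262), and the adjusted p of Kcnj16 was 0.0578. With 1 library left out the count of falls ranged from 16 without young 2 to 26 without old 3, against 24 with all 6 (Kcnq1ot1 included). The authors' deposited table lists an FDR under 0.05 for 28 members as lower and 2 as higher, where 18.7% and 16.8% of all genes with an FDR were so. With upper-quartile scaling 24 members fell and 3 rose, while over all tested genes 3439 were higher and 2338 lower, against 2524 higher and 2969 lower here.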

How the data were processed

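The deposited table gives, per the file headers, the mm10 position of each gene, 6 sample columns and the authors' comparison of old with young. Values of the 6 columns are size-factor scaled reads per gene, treated as a deposited signal, since each library's values are whole multiples of what 1 read is worth. Per the submitters' processing notes the tools were TopHat2, Partek and DESeq2 on mm10, and their order and settings were not stated. The deposited p-value, the FDR and the signed fold change score are the authors' own. Starts count from 1, and ends are the deposited stop less 1.

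Whole reads were recovered within a tolerance of 0.1 for 99.931% to 99.971% of values above 0. The test was limma (3.58.1) with a variance trend on log2(value + 1), two-sided, Benjamini-Hochberg over 15882 genes that edgeR's (4.0.16) filterByExpr kept (minimum count 10, minimum total 15), threshold 0.05. Adding 1 before the log pulls changes of genes with few reads toward 0, yet limma and edgeR differed in both directions. The highest Kcne log2 fold change was 1.52 in limma and 1.24 in edgeR, while the lowest Kcnj one was -2.03 in limma and -2.21 in edgeR. Alternatives were edgeR and DESeq2 (1.42.0) on recovered reads, other scalings, pseudocounts, filters and threshold, a replicate block, libraries left out, and removal of smooth trends (mgcv 1.9.3) in length and GC content, known for 99.2% of tested genes from GENCODE M21. The steps were tested on simulated counts. A chi-square test between replicates gave 19.3 to 67.2 per degree of freedom, more than sampling noise gives.

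Members, lists and ratios were chosen with earlier results of these data known, and the division by neuron markers was added after seeing the data. Values per library were given for members called at a mean of at least 100 (up to the 12 largest changes each way), the most abundant member of each subfamily at that mean, and a list of members with known roles in nerve or cochlea. Other members were named to complete a count or a pair. The 13 rows under a mean of 10 and the 2 members that failed the read filter were not tested. Some genes are counted but not reported here one by one.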

Additional observations from a re-analysis of the deposited data

How the results depend on the processing

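Under edgeR, DESeq2, TMM and upper-quartile scaling, both other pseudocounts and both other filters, the number of potassium channel rows called lower was 22 to 28 (24 as reported, Kcnq1ot1 included) and called higher 2 or 3 (2 as reported). With 1 library left out, lower ranged from 16 to 26, higher from 2 to 3 and the median log2 fold change from -0.60 to -0.36. An adjusted p under 0.01 gave 9 lower and 1 higher. Without both young 1 and old 2 there were 9 lower and 1 higher. Same-numbered old and young libraries did not deviate alike from their group means (correlations -0.29, -0.41 and -0.05). These values cannot tell whether same-numbered mice were handled together. A replicate block gave 16 lower and 1 higher. The block with the length and GC trends removed gave 7 lower and 1 higher. The count of partner genes called higher was 0 as reported, 2 with upper-quartile scaling, 2 with the trends removed and 0 to 1 with 1 library left out. The 13 partner genes called lower became 7 to 14 with 1 library left out, 4 without both young 1 and old 2, 2 with the block and the trends removed and 5 at the 0.01 threshold. Over all genes, 2524 higher and 2969 lower became 1078 and 1633 with the block, 831 and 945 without both libraries, 1596 and 1928 with the trends removed, 390 and 481 with the block and trends removed, and 763 and 1103 at 0.01. With 1 library left out they ranged from 1159 to 2757 and from 1430 to 3360. Kcnq1ot1 turned to 0.27 with the trends removed, with the block (0.27) or without. Of the 26 called members, 18 lost the call without both libraries, 7 with the trends removed (Kcnq1ot1 included) and 9 with the block; causes were not tested. With 3 mice a group, an exact test of 1 gene cannot go below p = 0.1, and counts under about 10 reads limit Kcnj6 and Kcne1.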

Other observations

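Of the 13 Kcn rows below a mean of 10 normalised reads, the nearest to the limit were Kcna7 at 9.97, Kcnk7 at 7.73 and Kcng2 at 6.99, while Kcnmb4os2 at 11.6, Kcna3 at 13 and Kcng1 at 15.8 lay just inside it. Kcna3, a Shaker-type channel of lymphocytes and microglia, had 8.46, 22.8 and 8.7 in the old and 22.6, 8.85 and 6.61 in the young libraries and failed the read filter. Kcns2, a silent subunit, failed it too, with 7.4, 6.64 and 7.74 in old nerves 1, 2 and 3, against 60.2, 7.86 and 5.51 in young nerves 1, 2 and 3, so young 1 supplied most of its reads. Kcnmb4os2, an antisense RNA that overlaps the start of Kcnmb4, had 7.4, 11.4 and 9.67 in old nerves 1, 2 and 3, against 17.9, 7.86 and 15.4 in young nerves 1, 2 and 3 and did not pass (-0.44).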
